A study of Mus musculus with 4 samples.

Results

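The genes described here are 9 that mark the primitive and visceral endoderm of the mouse embryo, read in 4 embryonic stem cell (ESC) lines that differ in Dppa2. They were chosen by name: the transcription factor genes Sox7, Sox17, Foxa2 and Hnf4a, the receptor tyrosine kinase gene Pdgfra, and the endocytic genes Lrp2, Cubn, Amn and Dab2. Every probe whose accession maps to one of these symbols was used, 18 of the 41174 gene probes on the array. They are 9 of the 32301 genes and transcripts on the array. All 9 passed the filter on dim probes with at least 1 probe, as did 21639 genes and transcripts in all, although Hnf4a passed through the KO lines alone.

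The study asked how ESCs differ without Dppa2 (ECAT15-2), a nuclear protein of pluripotent cells. The 2 KO lines lacked ECAT15-2 on both alleles (15-2-/-) and also carried a conditional targeted allele of ECAT15-1 (Dppa4) on both copies (15-1CT/CT). The 2 WT lines were wild type at both loci (15-1+/+, 15-2+/+). All 4 lines were derived from separate blastocysts of one type of intercross, KO 1 and WT 1 from mother 1046, KO 2 and WT 2 from mother 875. Their strain background is a mixture of 129Sv and C57/BL6 with Cre or FLPe transgenic mice of unknown background. Cells were grown for 3 days on gelatin in medium with LIF and 15% FCS, and total RNA was labelled with Cy3, with 1 Agilent whole-genome array per line. The comparison is therefore between compound genotypes, with 2 lines in each group. Since each line was hybridised once, the spread within a group mixes that between lines with that of the array.

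Signals are given as log2 of the scanner software's processed intensity, scaled so that the 75th percentile is the same on every array. The scanner software calls a probe well above background where its signal clearly exceeds the local and negative-control level, and this held for 68.4% to 70.3% of gene probes on each array. Dppa2 itself had 7.05 and 7.12 in the KO lines, against 12.09 and 12.03 in the WT lines, a difference of -4.97 (SE 0.12, limma adjusted p = 0.00886). No spot was saturated. Across the whole table the median log2 difference was 0.10. Y-linked genes (Ddx3y, Eif2s3y, Kdm5d and Uty) were well above background in WT 1 alone, so the lines are not matched for the Y chromosome. None of the 9 genes lies on a sex chromosome.

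Primitive endoderm is the epithelium that separates from the epiblast on the surface of the inner cell mass before implantation. It gives rise to parietal endoderm, which lays down a thick basement membrane, and to visceral endoderm, which surrounds the embryo and feeds it. GATA and SOX factors set up the lineage, PDGFRA is one of its early surface markers, and FOXA2 and HNF4A act in the visceral endoderm, where HNF4A drives genes of secreted transport proteins. Visceral endoderm takes up maternal proteins and vitamins through the giant receptors megalin (Lrp2) and cubilin (Cubn). Cubilin has no membrane span of its own and is carried by amnionless (Amn), and DAB2 links the receptor tails to clathrin. The same uptake system works in the kidney proximal tubule. Several of these genes are also used outside this lineage, so their signal in an ESC culture is not proof of endoderm cells.

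The 9 genes did not move as a block. The endocytic genes Lrp2 and Dab2 fell in the KO lines and Amn was lower in both, whereas Sox7, Sox17 and Pdgfra were higher in both KO lines without passing the test. Of the 9 genes, 2 fell (Lrp2 and Dab2), 0 rose and 7 did not pass in limma at a Benjamini-Hochberg adjusted p under 0.05. Over all tested genes 1.67% fell and 0.176% rose. At an unadjusted p under 0.05 limma had 3 of the 9 lower (Lrp2, Dab2 and Amn) and 1 higher (Sox7), against 12.4% and 11.2% of all genes. With the mother as a block 0 of the 9 and 0 of all genes passed in limma. The KO line was at least 2-fold lower than the WT line within both mothers for 3 of the 9 (Lrp2, Dab2 and Amn) and at least 2-fold higher for 1 (Pdgfra), against 6.94% and 1.56% of all genes. Both KO lines lay below both WT lines for 4 of the 9 genes and above them for 4, a pattern that 24.5% and 37.7% of all genes show. The 4 below include Foxa2, whose groups were only 0.04 log2 units apart. The 4 above include Hnf4a, which passed the filter through the KO lines alone and whose groups were 0.03 apart.

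**Figure D1:**
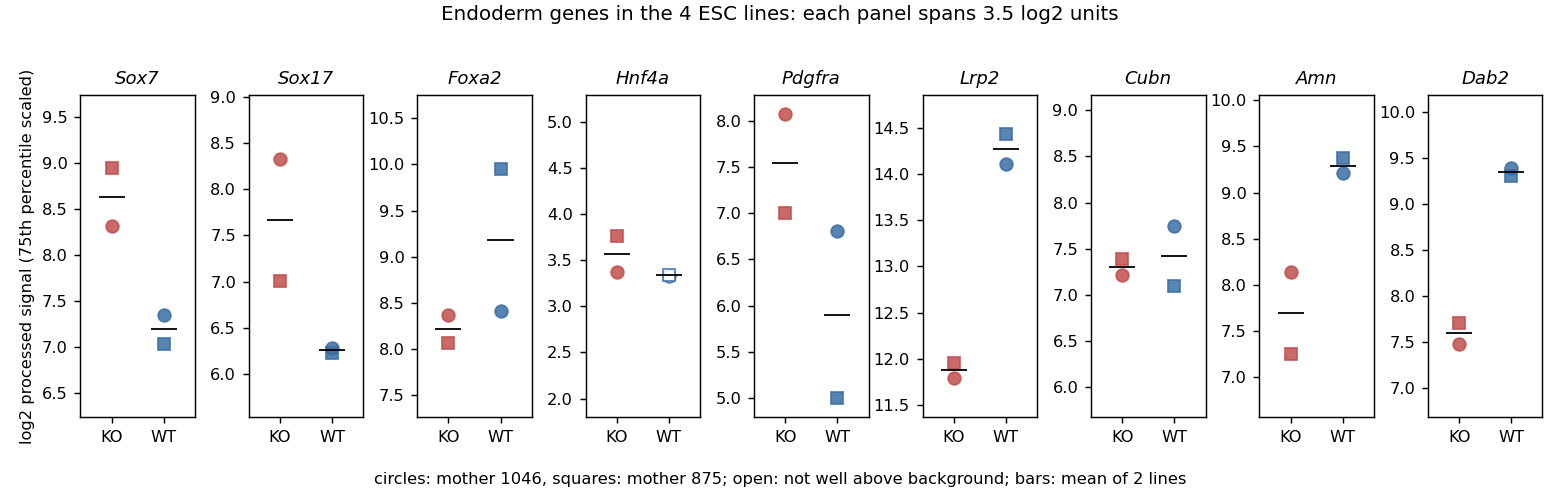
The log2 processed signal of each of the 9 genes (brightest probe) is plotted for the KO lines (left, red) and the WT lines (right, blue), with every panel spanning the same number of log2 units. Circles are lines of mother 1046, squares lines of mother 875, open symbols are below the background call, and bars are the means of 2 lines; Lrp2, Dab2 and Amn sit lower in KO lines, Sox7, Sox17 and Pdgfra higher, and the groups overlap for Cubn.

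Of the 4 endocytic genes, Lrp2 and Dab2 fell, Amn did not pass and Cubn overlapped between the groups. The promoters of these 4 genes are shown because the calls fall among them and because they differ in composition. Each line is the 250 bases before a RefSeq transcription start on build GRCm38.p6, 5′ to 3′ on the gene's strand, with CG dinucleotides in capitals. The promoter set used holds 2 such starts for Dab2, neither of them at the 5′ edge of its RefSeq gene. Which start of Dab2 is used in these cells was not measured.
Lrp2, chr2:69586030-69586279, minus strand: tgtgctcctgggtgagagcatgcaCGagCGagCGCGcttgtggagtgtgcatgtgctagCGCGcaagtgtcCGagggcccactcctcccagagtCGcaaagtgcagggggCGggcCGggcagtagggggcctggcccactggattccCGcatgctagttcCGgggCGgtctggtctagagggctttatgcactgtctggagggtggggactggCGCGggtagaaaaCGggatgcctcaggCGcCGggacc
Amn, chr12:111270846-111271095, plus strand: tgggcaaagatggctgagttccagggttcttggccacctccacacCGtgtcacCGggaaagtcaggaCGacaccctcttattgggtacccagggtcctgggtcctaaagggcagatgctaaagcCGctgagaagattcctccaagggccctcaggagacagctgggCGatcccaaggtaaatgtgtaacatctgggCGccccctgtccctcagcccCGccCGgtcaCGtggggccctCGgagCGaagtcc
Dab2, upstream start, chr15:6299539-6299788, plus strand: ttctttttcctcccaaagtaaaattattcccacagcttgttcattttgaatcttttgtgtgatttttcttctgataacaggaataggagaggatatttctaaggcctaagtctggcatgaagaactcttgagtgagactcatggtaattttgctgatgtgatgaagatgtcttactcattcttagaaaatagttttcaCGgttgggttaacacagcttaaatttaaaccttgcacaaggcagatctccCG
Dab2, downstream start, chr15:6386498-6386747, plus strand: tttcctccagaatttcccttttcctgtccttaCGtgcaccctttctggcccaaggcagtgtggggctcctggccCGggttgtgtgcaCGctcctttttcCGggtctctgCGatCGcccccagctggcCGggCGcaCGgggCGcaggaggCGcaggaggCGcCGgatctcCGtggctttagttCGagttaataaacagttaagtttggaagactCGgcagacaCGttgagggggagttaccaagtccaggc
Cubn, chr2:13491877-13492126, minus strand: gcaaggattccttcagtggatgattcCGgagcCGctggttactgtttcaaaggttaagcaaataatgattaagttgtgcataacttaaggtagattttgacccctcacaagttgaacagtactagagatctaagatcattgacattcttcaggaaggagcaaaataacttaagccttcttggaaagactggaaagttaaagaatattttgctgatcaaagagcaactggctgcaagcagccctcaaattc

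These windows range from CpG-rich to CpG-poor. Lrp2 has 18 CG dinucleotides, Amn 11 and the downstream Dab2 start 17, while the upstream Dab2 start and Cubn have 2 each. The median over 32851 mouse promoter windows of the same length was 6, and 21.7% of them have at least as many as Lrp2. The GATA-type motif TGATAA, searched on both strands, occurs in the upstream Dab2 window and in none of the other 4. It is present in 7.94% of all promoter windows. The related AGATAA, on both strands, occurs in none of these 5 windows, against 9.99% of all. The search covered 11 windows from 7 of the chosen genes. Among those not shown, AGATAA occurs in a Foxa2 window and in an Hnf4a window. A letter match in a window is a description only and shows no binding.

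Lrp2 encodes megalin, a giant receptor that takes up lipoproteins, vitamin carriers and other ligands. Its brightest probe read 11.80 and 11.95 in the KO lines, against 14.11 and 14.43 in the WT lines. Both KO lines lay more than 2 log2 units under both WT lines, and lines of the same genotype were close together. Lrp2 fell 5.28-fold, with means of 11.87 ± 0.11 in KO lines and 14.27 ± 0.23 in WT lines (SD, n = 2 each). The log2 difference was -2.40 (SE 0.18, 95% interval -2.91 to -1.89, limma adjusted p = 0.0314), and 3.01% of all tested genes had one as low or lower. The pair of mother 1046 differed by -2.31 and the pair of mother 875 by -2.49.

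Lrp2 has 4 probes on the array, and all of them were well above background in all 4 lines. The second read 10.97 and 11.17 in KO lines, against 13.20 and 13.42 in WT lines. The third read 5.46 and 5.84 in KO lines, against 7.76 and 8.05 in WT lines. The dimmest read 3.95 and 3.96 in KO lines, against 6.16 and 6.49 in WT lines. The probes thus start from very different signals but give nearly the same difference, between -2.40 and -2.24. In a limma fit on all 28688 probes taken separately, 4 of 4 Lrp2 probes were lower (adjusted p between 0.0266 and 0.0415), where 1.64% of all probes were. Probes of 1 gene read the same RNA and are not replicates.

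Dab2 encodes the clathrin adaptor that binds the tail of megalin and of related receptors. It read 7.48 and 7.71 in KO lines, against 9.39 and 9.30 in WT lines. The groups were separated by 1.59 log2 units and lines of 1 genotype differed by 0.23 or less. Dab2 fell 3.37-fold (log2 difference -1.75, SE 0.15, 95% interval -2.18 to -1.32, limma adjusted p = 0.0378), by 1.91 within mother 1046 and by 1.59 within mother 875. Its second probe was not well above background in any line and was not tested.

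Amn encodes amnionless, the membrane partner that brings cubilin to the cell surface. It read 8.14 and 7.25 in KO lines, against 9.21 and 9.38 in WT lines. Both KO lines were lower than both WT lines, but the KO lines themselves differed by 0.89, with KO 2 the lower. The difference was -1.60 (SE 0.35, 95% interval -2.61 to -0.59) and did not pass (limma adjusted p = 0.128). Without KO 1 it was -2.04 and just passed (limma adjusted p = 0.0499), with the lone KO line assumed to vary like the WT lines.

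Cubn, the ligand-binding partner of amnionless, showed no such difference. It read 7.21 and 7.39 in KO lines, against 7.75 and 7.10 in WT lines, so the KO lines lay between the WT lines. The difference was -0.12 (SE 0.28, limma adjusted p = 0.801), with a 95% interval of -0.91 to 0.67. That interval does not reach the estimates for Lrp2, Dab2 or Amn, although it allows a smaller change in either direction. It overlaps the interval of Amn (-2.61 to -0.59), and a difference between genes was not tested. The sign for Cubn is not settled, since its difference was 0.06 under median centring, 0.03 under normexp with quantile scaling and 0.20 without WT 1.

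The Lrp2 and Dab2 calls were close to the threshold, while their sizes were stable. With the mother as a block limma gave adjusted p = 0.0842 for Lrp2 and 0.102 for Dab2. With only genes above background on all 4 arrays it gave 0.0543 and 0.0586. With no filter on dim probes, limma kept the Lrp2 call and gave adjusted p = 0.055 for Dab2. Leaving out any 1 line ended both calls: limma adjusted p was 0.167 (Lrp2) and 0.222 (Dab2) without WT 1, 0.187 and 0.226 without WT 2, 0.0548 and 0.0541 without KO 1, and 0.0926 and 0.0859 without KO 2. Over 15 alternatives the log2 difference stayed between -2.56 and -2.22 for Lrp2 and between -1.87 and -1.44 for Dab2. Some of these, such as the block on mother, the changed filters and the fit on separate probes, returned exactly the reported sizes. The range therefore rests on the other alternatives.

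**Figure D2:**
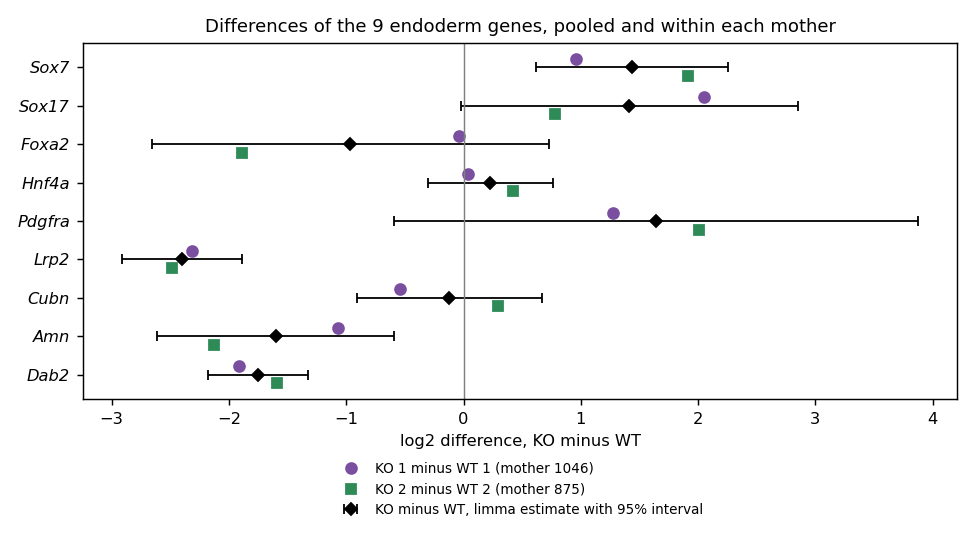
The log2 difference, KO minus WT, is plotted for each of the 9 genes as the limma estimate with its 95% interval (black diamonds) and as the difference within mother 1046 (purple circles) and mother 875 (green squares). The intervals of Lrp2, Dab2 and Amn lie below 0 and that of Sox7 above 0, while both mothers differ on the same side of 0 for every gene but Cubn. Within mother 1046 the differences of Foxa2 (-0.04) and Hnf4a (0.03) are close to 0.

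**Figure D3:**
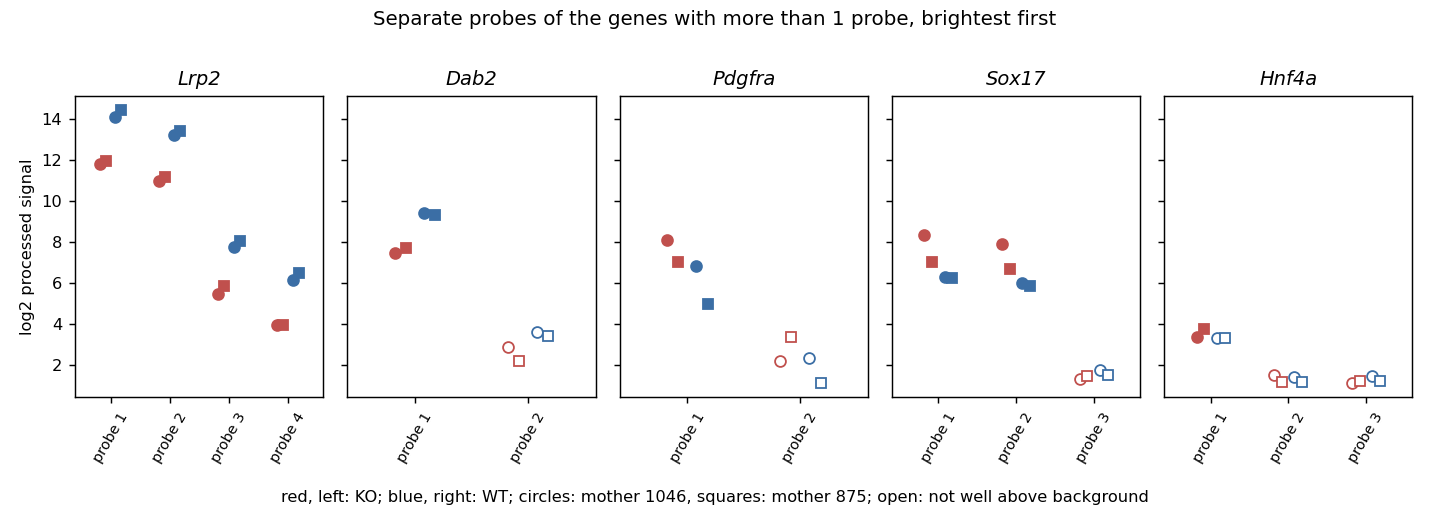
The log2 processed signal of every probe is plotted for the genes with more than 1 probe, brightest probe first, with KO lines in red at the left of each probe and WT lines in blue at the right. The 4 Lrp2 probes keep the same spacing between KO and WT lines from the brightest to the dimmest, and open symbols mark probes below the background call.

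None of the 4 transcription factor genes passed in limma (0 calls). At an unadjusted p under 0.05 limma had 1 of them higher, Sox7, where 11.2% of all genes were. Sox7, a SOXF factor gene that is switched on as primitive endoderm forms, read 8.31 and 8.95 in KO lines, against 7.35 and 7.03 in WT lines. Both KO lines were above both WT lines. The difference was 1.44 (SE 0.29, 95% interval 0.62 to 2.26), or 2.71-fold, and did not pass over all genes (limma adjusted p = 0.113).

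Sox17, a SOXF factor gene of primitive and definitive endoderm, read 8.33 and 7.01 in KO lines, against 6.28 and 6.22 in WT lines. KO 1 stood 1.33 above KO 2, whereas the WT lines were within 0.06 of each other. The second Sox17 probe gave the same order, with 7.91 and 6.70 in KO lines and 5.99 and 5.83 in WT lines. The third was below the background call on every array. The difference of the brightest probe was 1.42 (SE 0.50, 95% interval -0.02 to 2.85, limma adjusted p = 0.215). It was 0.75 without KO 1 and 0.83 under normexp background correction with 75th percentile scaling.

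Foxa2, a forkhead factor gene of visceral and definitive endoderm, read 8.37 and 8.06 in KO lines, against 8.41 and 9.95 in WT lines. WT 2 stood apart, and WT 1 lay only 0.04 above KO 1. The probe is printed as 10 spots, whose SD within an array was 0.04 to 0.11, so the high value of WT 2 was seen across its spots. The difference was -0.96 (SE 0.59, 95% interval -2.66 to 0.73, limma adjusted p = 0.378), and -0.19 without WT 2 against -1.74 without WT 1.

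Hnf4a, the nuclear receptor gene that drives secreted-protein genes in visceral endoderm, was at the edge of detection. Its brightest probe read 3.37 and 3.76 in KO lines, just above background, and 3.33 and 3.34 in WT lines, not well above background. Set against the WT floors, Hnf4a was 1.07-fold higher in the mean of the KO lines. The floor is the lowest signal called well above background on each WT array, or the probe's own value if higher. KO 1 lay below the WT 1 floor of 3.58, so this does not hold for each KO line. Hnf4a was kept through the KO lines alone. The fitted difference of 0.23 (SE 0.19, limma adjusted p = 0.483) became -0.07 under normexp background correction with 75th percentile scaling. The other 2 Hnf4a probes were below the background call on every array.

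Pdgfra encodes the alpha receptor for platelet-derived growth factors and marks primitive endoderm early, as well as mesenchyme. It read 8.08 and 7.01 in KO lines, against 6.81 and 5.00 in WT lines. KO 1 was the highest and WT 2 the lowest, and only 0.20 separated KO 2 from WT 1. In both genotypes the line of mother 875 was lower than that of mother 1046, by 1.07 in KO lines and by 1.80 in WT lines. Of all genes, 1.26% differed as much or more between the WT lines. The difference was 1.64 (SE 0.78, 95% interval -0.59 to 3.87, limma adjusted p = 0.293). With the mother as a block the limma adjusted p was 0.146. Without WT 2 the difference was 0.74, without WT 1 it was 2.54, and under normexp with 75th percentile scaling it was 0.83. These are the widest shifts among the 9 genes. Pdgfra is also a gene of fibroblasts, whose markers are given below.

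**Figure D4:**
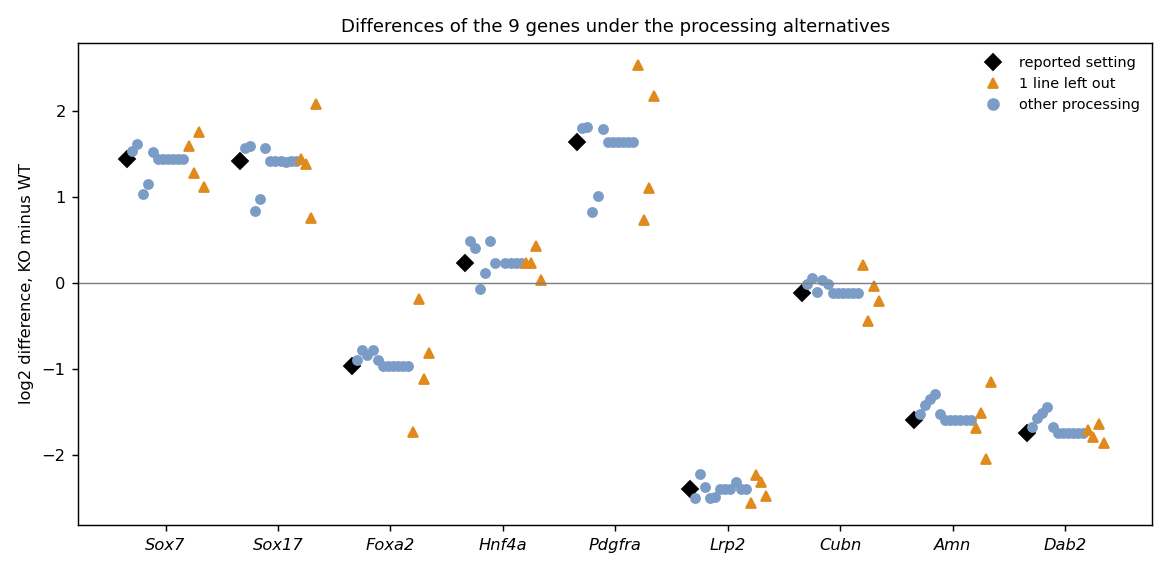
The log2 difference, KO minus WT, of each gene is plotted under the reported setting (black diamonds), with 1 line left out (orange triangles) and under the other processing alternatives (blue circles). Lrp2 and Dab2 stay in a narrow band below 0, whereas Pdgfra, Foxa2 and Sox17 move most when 1 line is left out and Cubn and Hnf4a cross 0.

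The genes whose 4 values followed Lrp2 most closely were Cyp2j9, Arfgef3, Trim54, Bhlha9 and Gnmt. Likeness was the Euclidean distance between values centred on each gene's mean, over 4 lines and 13475 other genes above background on all arrays, and for these 5 it was 0.16 to 0.24. Chosen by that distance, they had to differ by about as much as Lrp2 (-2.40). Their differences lay between -2.62 (Gnmt) and -2.38 (Trim54). Pdgfra was followed by Hal, Iqcf5, H2-DMb1, Mmd2 and Slc5a4b, at distances of 0.36 to 0.61, so its closest neighbours were farther away than those of Lrp2. With 4 lines such likeness is a description.

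Other genes of the lineage were read from lists. Of 11 tested endoderm transcription factor genes besides the 4 above, 0 were called lower, 1 was called higher and 10 did not pass. The shares over all genes were 1.67% lower and 0.176% higher. The median difference was 0.43, against 0.10 for all genes. That median includes Gata5 and Hnf4g, both kept through the KO lines alone, so it is a description only. The 1 call was Gata5, a GATA factor gene of endoderm and heart, which passed the filter on dim probes through the KO lines alone, so the call sets KO signal against background and is not evidence for the list. It read 3.87 and 3.41 in KO lines, against 1.29 and 1.07 in WT lines, where it was not well above background (limma adjusted p = 0.0408). KO 2 lay below the WT 1 floor of 3.58 described for Hnf4a. Set against the WT floors, Gata5 was 1.13-fold higher in the mean of the KO lines. Its spread in WT lines is that of background signal, and under normexp with 75th percentile scaling the difference was 0.10 (limma adjusted p = 0.854). With the mother as a block the limma adjusted p was 0.0848. Leaving out WT 1, WT 2 or KO 2 also ended the Gata5 call (limma adjusted p of 0.201, 0.227 and 0.0784). The next smallest p belonged to Sox18, another SOXF gene, used in vessels, which read 6.48 and 5.71 in KO lines, against 7.81 and 9.05 in WT lines. Its difference of -2.33 (limma adjusted p = 0.137) has the opposite sign to those of Sox7 and Sox17. Foxa3 differed by 0.55 and Lhx1, a visceral endoderm and organizer gene, by -0.62, neither passing (limma adjusted p of 0.152 and 0.174).

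Of 16 listed genes for secreted and transport products of the visceral endoderm, 10 could be tested. In limma 0 fell, 0 rose and 10 did not pass, and 1 of the 10 was lower at an unadjusted p under 0.05, against 12.4% of all genes. The median difference of the 10 was -0.48. That median includes Bmp2 and Apob, both kept through the WT lines alone. The serum-protein genes Ttr, Apoa1, Apoa4 and Fgb and the Nodal antagonist gene Cer1 were below the background call in all 4 lines. Afp, the alpha-fetoprotein gene, read 4.17 and 4.34 in KO lines, against 5.40 and 3.98 in WT lines, with the groups overlapping. The smallest p were those of Bmp2 (-3.04), Dkk1 (-0.90), the transferrin gene Trf (-0.97) and the Nodal antagonist gene Lefty1 (0.98), with limma adjusted p between 0.157 and 0.247. Bmp2 was above background in 1 of 2 KO lines.

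Of 12 tested parietal endoderm and basement membrane genes, 0 fell, 1 rose and 11 did not pass, with a median of -0.58. Among all genes 1.67% fell and 0.176% rose. The difference was negative for 8 of the 12 and positive for 4. Both KO lines lay below both WT lines for 7 and above them for 2, against 24.5% and 37.7% of all genes. Lama1, the laminin alpha-1 gene of the earliest basement membranes, read 10.05 and 10.28 in KO lines, against 8.53 and 8.43 in WT lines. Lama1 rose 3.21-fold (log2 difference 1.68, SE 0.15, limma adjusted p = 0.0397), with both KO lines over 1.5 log2 units above both WT lines; the adjusted p was 0.106 with the mother as a block. Leaving out any 1 line ended the Lama1 call (limma adjusted p from 0.0504 without KO 1 to 0.241 without WT 2). The type IV collagen genes Col4a1 and Col4a2 differed the other way, by -2.18 and -1.95 (limma adjusted p of 0.0688 and 0.0682), as did the plasminogen activator gene Plat, by -1.40 (0.0846).

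The wider uptake machinery showed mostly small differences. Of 24 tested partners and endocytic components, 1 fell, 0 rose and 23 did not pass, with a median of 0.03. The shares over all genes were 1.67% lower and 0.176% higher. The one that fell was Clcn5, whose product is the chloride-proton exchanger of endosomes that megalin uptake in the kidney depends on. It read 7.73 and 7.84 in KO lines, against 9.27 and 9.40 in WT lines, a 2.92-fold fall (log2 difference -1.55, SE 0.14, limma adjusted p = 0.0393; 0.0972 with the mother as a block). Leaving out any 1 line ended the Clcn5 call (limma adjusted p from 0.0611 without KO 1 to 0.241 without WT 2). Clcn5 lies on the X chromosome, and its values in WT 1, the only line with Y-linked signal, and WT 2 differed by 0.14. The motor gene Myo6 (-0.63), the recycling GTPase gene Rab11a (-0.47) and the folate receptor gene Folr1 (-0.36) had the next smallest p and did not pass (limma adjusted p between 0.140 and 0.232). Lrpap1, the chaperone of megalin and related receptors, differed by 0.26 and the clathrin heavy chain gene Cltc by 0.15 (limma adjusted p of 0.323 and 0.494).

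Among relatives of Lrp2, Vldlr differed by -0.93, Lrp8 by -0.82 and Lrp10 by -0.45, none passing (limma adjusted p of 0.194, 0.270 and 0.164). Among 4 tested genes of the PDGF family besides Pdgfra, the ligand gene Pdgfb fell 6.27-fold, with 5.81 and 5.75 in KO lines, against 8.55 and 8.31 in WT lines (log2 difference -2.65, SE 0.15, limma adjusted p = 0.0222; 0.0837 with the mother as a block). The Pdgfb call also ended without WT 1, WT 2 or KO 2 (limma adjusted p of 0.167, 0.153 and 0.0807). Pdgfa, another ligand gene, differed by 0.26, Pdgfc by 0.06 and the beta receptor gene Pdgfrb by -0.50, none passing (limma adjusted p between 0.429 and 0.921).

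**Figure D5:**
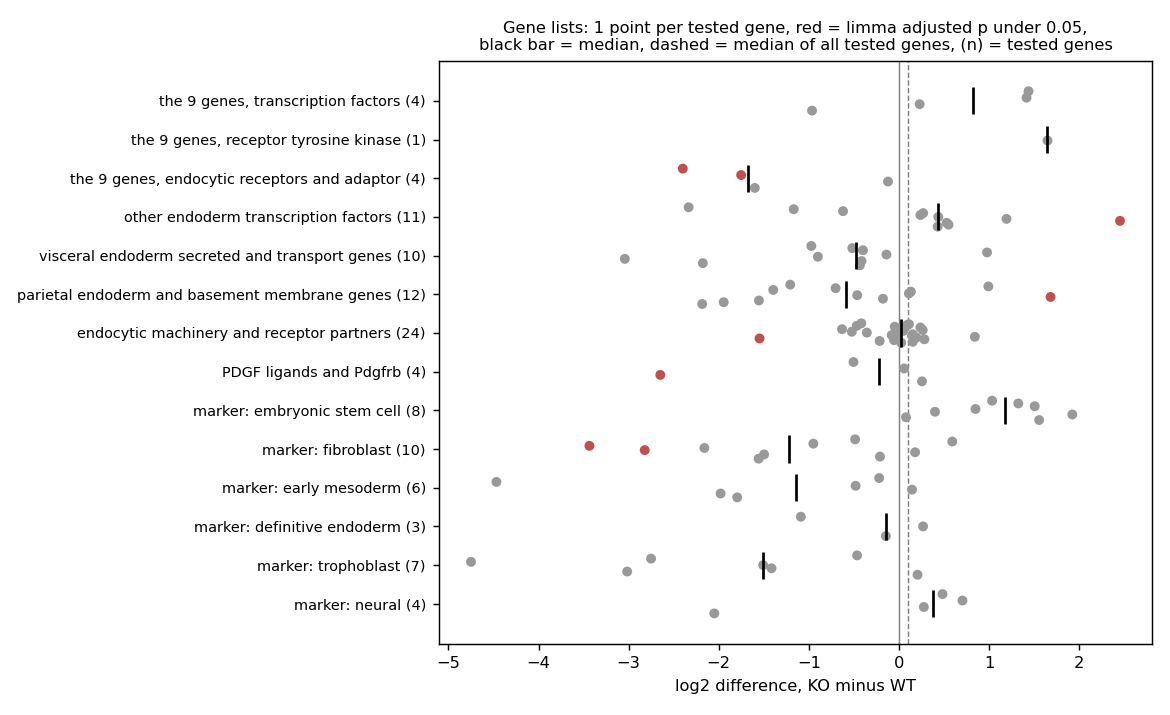
Each point is the log2 difference, KO minus WT, of 1 tested gene, by list, with red for a limma adjusted p under 0.05, black bars for list medians and a dashed line for the median of all tested genes. Endocytic machinery genes cluster near 0 apart from Clcn5, and the marker lists of trophoblast, early mesoderm and fibroblasts have medians below -1.

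Markers of cell types were read beside these results, since fewer cells of a type and less RNA per cell cannot be told apart in bulk RNA. All 8 ESC markers with a usable probe were above background in every line. Their summed signal was 193500 to 278000 in KO lines, against 122900 to 131900 in WT lines, and 0 of 8 passed in limma (5 higher at an unadjusted p under 0.05). Over all genes, 12.4% were lower and 11.2% higher at that unadjusted p, the shares to set beside the counts of each marker list. Trophoblast and early mesoderm markers were lower in sum in both KO lines than in either WT line. The trophoblast sum over 8 genes was 2118 to 2667 in KO lines, against 11940 to 18010 in WT lines. In every line this sum is mostly the bright Krt7 probe. Of 7 tested genes, 0 passed in limma (5 lower at an unadjusted p under 0.05). Hand1 (-4.75, limma adjusted p = 0.0504) and Gata3 (-1.51, 0.0567) came nearest, followed by Krt7 (-2.75) and Tfap2a (-0.47). Ascl2 alone had a positive difference (0.21). The early mesoderm sum over 6 genes was 379.5 to 742.7 in KO lines, against 2267 to 4075 in WT lines, with Eomes (-1.80) and T (-4.47) at the smallest p and 0 of 6 passing (2 lower at an unadjusted p under 0.05 in limma).

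Fibroblast markers summed to 5638 to 6382 in KO lines, against 6448 in WT 2 and 15550 in WT 1. Of these 10 genes, 8 had a negative difference and 2 a positive one (Thy1, 0.59, and Dcn, 0.18), so the list did not move together. Mmp2 (-3.44) and Fbn1 (-2.82) fell (limma adjusted p of 0.0222 and 0.0255, or 0.0837 and 0.0845 with the mother as a block). Pdgfra, by contrast, was higher in KO lines, and among WT lines it was higher in WT 1, as the fibroblast sum was. Of 3 tested definitive endoderm markers none passed in limma (0 calls; 1 lower at an unadjusted p under 0.05, Trh, -1.09). Cxcr4 differed by -0.15 and Gsc by 0.27, so the list did not move together. Its sum, which is mostly the bright Trh probe, was 6998 to 7653 in KO lines, against 15000 to 15640 in WT lines. Of 4 tested neural markers none passed (0 calls in limma; 1 lower at an unadjusted p under 0.05, Nes, -2.05). Sox1 (0.70), Tubb3 (0.48) and Pax6 (0.28) had positive differences, and the list median was 0.38. The neural sums were 9116 to 9613 in KO lines, against 12850 to 19850 in WT lines, a gap that comes from Nes. Nepn, of the definitive endoderm list, was below the background call in all lines. The part of other cell types in the differences of Lrp2, Dab2, Sox7, Sox17 and Pdgfra was not tested.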

How the data were processed

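The members and gene lists were chosen with earlier results of these data known. Per the file headers, the spot intensity was read by the authors in software version 10.7.3.1 of Agilent Feature Extraction; the processed intensity is background-subtracted and detrended within each array. The deposited series table holds log2 values (scale read from the values): each column correlated with its array at 0.999901 to 0.999988, and the columns shared their quantiles within 0.00332, each with a median of 6.55; it was used as an alternative. Flags for background and outliers are other values, per the file headers. From these, log2 processed signal was scaled to each array's 75th percentile, outlier spots and control spots were left out, and spots of a probe were averaged. Probes were named through accessions in a RefSeq table (GRCm38.p6): 26690 of 41174 matched 1 symbol. Probes well above background on both arrays of a group were kept, with the brightest per gene. The KO minus WT contrast was fitted without a block (R 4.3.3, limma 3.58.1, Benjamini-Hochberg at 0.05). Equal numbers share a mother, per the labels; differences between mothers correlated at 0.189 across genes in both genotypes, so a block on mother was fitted beside it. The fit was tested on simulated data. Precision is limited by 2 arrays per group. Named genes were the 9 members, and of each other list those called and up to 4 with the smallest p. Afp, Lrpap1, Cltc and the genes named as below background were added after their values were seen. The list of Lrp2 relatives is not reported here as a whole.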

Additional observations from a re-analysis of the deposited data

Results flagged for a closer look

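Cubn differed in opposite directions in the 2 pairs of lines. KO 1 was 0.54 log2 units lower than WT 1 (difference -0.54, mother 1046) and KO 2 was 0.29 higher than WT 2 (mother 875), with 1 line of each genotype per mother, so the difference between mothers was not tested. Over all tested genes 24.0% had opposite signs in the 2 pairs.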

How the results depend on the processing

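With 2 lines per group, the Lrp2 and Dab2 calls were lost under several alternatives. The sizes of Lrp2, Dab2, Amn and Sox7 stayed within 1.5 times, and those of Pdgfra, Foxa2, Sox17, Hnf4a and Cubn did not. The count of falls among the 9 genes was 2, and it was 0 with the mother as a block (replicate block), 0 with genes above background on all 4 arrays, 1 with no filter on dim probes, and 0 to 1 with 1 line left out (Amn alone, without KO replicate 1); the count of rises was 0 throughout. Over all genes the falls numbered 361 and the rises 38; both were 0 with the replicate block (limma; unadjusted p under 0.05 in 2734 falls and 2280 rises) and 0 with genes above background on all 4 arrays (2183 and 2448). Leaving out 1 line gave 0 to 676 falls and 0 to 64 rises. The rises were 60 under median centring, 73 under normexp with the 75th percentile, 9 with no filter and 81 with an intensity trend and robust prior. The sign turned for Cubn under median centring (0.0578), under normexp with quantile scaling (0.0308) and with 1 line left out (-0.4476 to 0.2041, above 0 without WT replicate 1), and for Hnf4a under normexp with the 75th percentile (-0.0684); the cause was not tested. The other 7 genes kept their sign under all 15 alternatives, some of which, such as the replicate block, leave the difference unchanged. Median centring moved the median of all genes to 0.28. The normexp settings used the median spot signal, chosen after seeing the data because the files give no mean spot signal.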
